A study of Mus musculus with 13 samples.

Results

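MHC class I molecules carry short peptides from a cell's own proteins to its surface, and 10 genes of this presentation pathway were examined in senescent mouse embryonic fibroblasts (MEFs) with and without Fucoidan-FV, a sulfated polysaccharide from the brown seaweed Fucus vesiculosus. The 10 genes were taken by name, with earlier results of these data known, and cover the steps of the pathway: the heavy chains H2-K1, H2-D1 and H2-T23, the light chain B2m, the peptide transporter and loading genes Tap1, Tap2 and Tapbp, the immunoproteasome subunits Psmb8 and Psmb9, and the transactivator Nlrc5. All 10 were found among the 57010 genes listed in the files, and all 10 were among the 15034 genes that passed the filter on low counts and were tested. Nlrc5 and Psmb9 reached the filter's level in no control culture and passed only through groups in which they were higher. Their tests against control cells, and those of Psmb9 against SnCs (senescent cells), are therefore descriptions. Counts are also given for the other 8 genes.

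Primary wild-type (WT) MEFs from mid-gestation embryos, from which viscera, lung and heart had been removed, were labelled mouse 4, mouse 5 and mouse 6, and each mouse number supplied 1 culture to each of 4 groups (n = 3 per group). Control cells were untreated and non-senescent. Senescent cells (SnCs) had received 2 µM etoposide, a topoisomerase II inhibitor that breaks DNA, during 24 h and had then been kept in normal medium for 5 days. The other two groups were SnCs given Fucoidan-FV at 100 µg/mL or at 300 µg/mL for 12 h before RNA extraction. The mouse strain and the ages of the cultures were not given in the sources used here. RNA was sequenced in bulk after a stranded total RNA preparation, so fewer cells of a type and less RNA per cell cannot be told apart.

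The 13 libraries held between 22782505 and 31278741 counts assigned to genes; control mouse 5 had 2 libraries, which were summed. The 10 fibroblast markers summed to between 13048 and 17569 CPM (counts scaled to the effective library size) in every sample, whereas Cd3e, which marks T cells, had 2 counts in all. Single fibroblast markers moved more than their sum, Dcn from a mean of 1.06 CPM in control cells to 81.6 CPM with 100 µg/mL. The 12 leukocyte markers together reached 3.57 to 5.44 CPM in control cells, 3.32 to 18.5 CPM in SnCs, 7.45 to 16.4 CPM with 100 µg/mL and 5.31 to 12.7 CPM with 300 µg/mL. In the same order, the 6 skeletal muscle markers, mostly Des and Acta1, reached 104 to 196, 149 to 359, 92.5 to 148 and 68.2 to 119 CPM. The 6 endothelial markers reached 1.32 to 2.21, 1.47 to 3.3, 5.95 to 11.7 and 5.23 to 8.36 CPM, with Tek the highest of them under Fucoidan-FV. Genes whose exons occur in a single annotated transcript also shifted together from library to library: the median of 1356 such genes lay between 1.51 below and 1.12 above its mean on the log2 scale, against 0.15 below to 0.22 above for 8307 genes sharing most of their sequence among transcripts. Of the 10 presentation genes, this touched B2m most, and its values are given both ways.

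In the class I pathway, proteasomes cut cytosolic proteins into peptides, the TAP1-TAP2 transporter moves these into the endoplasmic reticulum, and tapasin, encoded by Tapbp, holds the transporter beside an empty class I molecule while it is loaded. A heavy chain becomes stable at the surface only when paired with β2-microglobulin, the product of B2m, and a peptide. Interferons raise the whole pathway, exchange the constitutive proteasome subunits for Psmb8, Psmb9 and Psmb10, and act through factors such as IRF1 and NLRC5, the latter of which binds class I promoters through a shared enhanceosome. Fibroblasts display classical class I at a low resting level, and recognition of stressed or damaged cells by T cells and natural killer cells depends in part on it. H2-T23 encodes Qa-1, a nonclassical heavy chain that is a ligand of the natural killer receptor NKG2A.

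Of the 10 genes, 8 lie on chromosome 17 within 2.21 Mb of the mouse major histocompatibility complex, H-2, while B2m is on chromosome 2 and Nlrc5 on chromosome 8. In GRCm39, Psmb9 (chr17:34400960-34406738, minus strand), Tap1 (chr17:34405996-34416199, plus strand), Psmb8 (chr17:34416690-34420428) and Tap2 (chr17:34422501-34435829) are neighbours in 34870 bases. Tapbp (chr17:34134873-34148267) and H2-K1 (chr17:34214987-34219321) lie on one side of them, and H2-D1 (chr17:35481691-35486475) and H2-T23 (chr17:36340229-36345571) on the other. B2m is at chr2:121977957-121983594 and Nlrc5 at chr8:95160984-95253900. Tap1 and Psmb9 run in opposite directions and their exons share 743 bases. The strand setting used in the counting was not given in the sources used here, so reads from the shared stretch could have gone to either gene.

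The 250 bases before the start of 4 genes are shown because they hold motifs known from class I promoters and because H2-K1 and H2-D1 share much of their sequence. They come from the RefSeq promoter table, which held 8 of the 10 genes, Tap2 and Nlrc5 being the ones without an entry, and each was placed in GRCm39 by exact match. Capitals mark the motifs searched on both strands: the core of an interferon-stimulated response element (GAAANNGAAA), the CCAAT box, a cAMP response element core (TGACG) and an NF-kB core (GGGNNTTCC), and a match on the other strand appears in its reversed and complemented letters. The H2-K1 window is at chr17:34219308-34219557 on the minus strand and belongs to the downstream of the 2 starts in the table, the H2-D1 window is at chr17:35481820-35482069 on the plus strand, the B2m window at chr2:121977918-121978167 on the plus strand, and the Tap1 window at chr17:34406280-34406529 on the plus strand.
H2-K1: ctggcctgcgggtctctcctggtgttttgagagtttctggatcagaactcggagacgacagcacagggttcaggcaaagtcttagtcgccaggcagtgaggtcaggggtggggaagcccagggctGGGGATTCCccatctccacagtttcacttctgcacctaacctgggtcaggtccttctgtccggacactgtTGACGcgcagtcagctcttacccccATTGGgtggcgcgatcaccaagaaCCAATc
H2-D1: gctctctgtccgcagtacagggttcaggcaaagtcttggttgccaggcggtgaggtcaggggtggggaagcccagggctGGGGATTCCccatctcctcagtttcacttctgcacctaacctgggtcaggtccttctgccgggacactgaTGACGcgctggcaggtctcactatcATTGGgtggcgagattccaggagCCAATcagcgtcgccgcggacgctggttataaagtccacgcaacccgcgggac
B2m: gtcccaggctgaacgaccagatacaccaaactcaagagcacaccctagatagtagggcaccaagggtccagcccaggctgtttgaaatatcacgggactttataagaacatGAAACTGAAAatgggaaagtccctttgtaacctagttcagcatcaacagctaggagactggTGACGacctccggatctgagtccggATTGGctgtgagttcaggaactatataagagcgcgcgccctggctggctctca
Tap1: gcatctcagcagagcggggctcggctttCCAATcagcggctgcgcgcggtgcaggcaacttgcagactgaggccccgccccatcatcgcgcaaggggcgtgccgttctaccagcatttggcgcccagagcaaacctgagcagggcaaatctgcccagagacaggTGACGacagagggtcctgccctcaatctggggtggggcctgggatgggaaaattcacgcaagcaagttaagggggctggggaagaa

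H2-K1 and H2-D1 held the same 4 matches in the same order. Only exact matches to the letters given above were searched, so a variant of an element would have gone unmarked. The NF-kB core, the cAMP response element core and the first CCAAT match stood 70 and 25 bases apart in both, and the last match followed after 24 bases in H2-K1 and 23 bases in H2-D1. Over the best placement without gaps, the 300-base windows of the 2 genes were identical at 180 of 254 bases (70.9%), against 34.7% to 38.6% for the H2-K1 window placed against those of H2-T23, B2m, Tap1, Tapbp or Psmb8. B2m carried an interferon-stimulated response element core, GAAACTGAAA, from 139 to 130 bases before its start, and H2-T23 held one on the other strand, TTTCTCTTTC, from 124 to 115 bases before its start. This core occurred in 3.44% of the 32851 promoter windows in the table, the cAMP response element core in 20.8%, the CCAAT box in 37.4% and the NF-kB core in 5.82%. Tap1 and Psmb9 are read from a common stretch, their 300-base windows sharing 275 bases, so the 2 matches printed for Tap1 are also those of Psmb9. Tapbp held 2 CCAAT matches on the other strand, and none of the 4 motifs was found in the Psmb8 window.

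The first question was how the pathway differed between SnCs and control MEFs. The transporter and loading genes and the transactivator were higher in SnCs, whereas the classical heavy chains and B2m showed no such difference. By edgeR's quasi-likelihood test with Benjamini-Hochberg adjustment, 4 of the 10 genes rose (Tap1, Tap2, Tapbp and Nlrc5) and none fell; among all genes tested, 6.11% rose and 5.63% fell. Nlrc5 passed the filter on low counts only through groups in which it was higher, and of the 8 genes at the filter level in control cells 3 rose. The median log2 fold change was 0.67 over these 8 genes and 1.13 over all 10, against 0.07 over all genes tested. The values of the SnCs and the control cells did not overlap for these 4 genes, as was so for 27.1% of all genes.

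Tap1, one subunit of the ATP-driven peptide transporter, stood at 5.91, 6.48 and 2.77 CPM in control mice 4, 5 and 6 and at 30.2, 26.5 and 24.7 CPM in the SnCs of the same mice. No senescent value came near the control range. The log2 fold change was 2.42 (SE 0.33, adjusted p = 0.000478 by edgeR's quasi-likelihood test), a 5.34-fold difference. Tap2, the partner subunit, was at 6.50, 7.56 and 11.3 CPM in control cells and at 24.8, 23.5 and 30.3 CPM in SnCs. The difference was 1.63 on the log2 scale (SE 0.29) with an adjusted p of 0.00262 by edgeR. Tapbp, the loading chaperone, was at 40, 58.1 and 36.8 CPM in control cells and 72.1, 76.4 and 108 CPM in SnCs, higher in all 3 mice with a log2 difference of 0.93 (SE 0.25 and adjusted p 0.0302 by edgeR). Its call was the least firm of the 4: the adjusted p was 0.0501 with mouse as a block, 0.0821 when only the 2 groups were fitted, 0.0738 with control library 5(2) alone, 0.0673 without control mouse 4 and 0.0531 without control mouse 6.

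**Figure D1:**
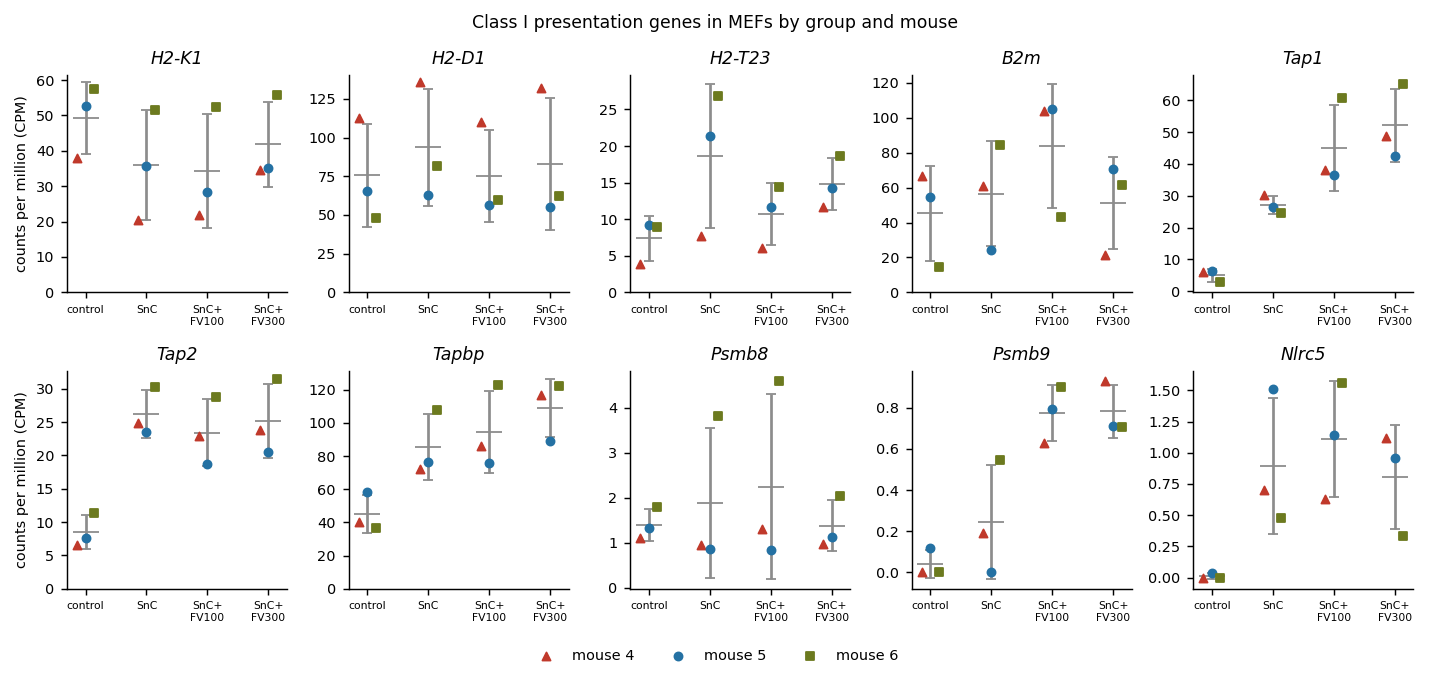
CPM of the 10 genes in each sample, by group (control, SnC, SnC with Fucoidan-FV at 100 or 300 µg/mL); markers are mice 4, 5 and 6, and the grey bar and whiskers are the mean and SD of 3 mice. Tap1 and Tap2 separate the control cells from the other groups, H2-D1 is highest in mouse 4 in all 4 groups, and Nlrc5 and Psmb9 are near 0 in control cells.

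Nlrc5, the transactivator of class I genes, was found in 1 control library only, with 2 counts in library 5(2) of mouse 5 and none in library 5(1) or in mice 4 and 6. The SnCs of mice 4, 5 and 6 held 22, 35 and 14 counts, or 0.703, 1.51 and 0.476 CPM. The groups were therefore apart in all 3 mice, at a level at which each count matters. The ratio of summed counts, scaled to library size, was 40.5 with an exact 95% counting interval of 10.8 to 341, which covers counting error only. The fitted log2 fold change was 5.32 (SE 1.15, adjusted p = 0.00905 by edgeR), a size that depends on how counts near 0 are treated, and the adjusted p was 0.0593 when only these 2 groups were fitted. The leukocyte marker Ptprc, at 0 to 0.127 CPM in control cells and 0.288 to 1.25 CPM in SnCs, moved in the same direction at a similar level without passing the test (adjusted p = 0.157 by edgeR). Of 9 leukocyte markers tested, 8 had a log2 fold change above 0 and 1 had one below 0, beside 54.2% of all genes above 0. Their median was 2.13, and none was called. The part of these markers in the Nlrc5 values was not tested.

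The heavy chains did not move as a group. H2-K1, a classical heavy chain, was at 37.9, 52.6 and 57.5 CPM in control mice 4, 5 and 6 and at 20.5, 35.7 and 51.6 CPM in SnCs. Each mouse was lower after etoposide, but the spread between mice was as large as the difference. The log2 fold change was -0.46 (95% interval -1.26 to 0.35, adjusted p = 0.505 by edgeR). H2-D1, the other classical heavy chain, was at 113, 65.7 and 48.3 CPM in control cells and 136, 63 and 81.8 CPM in SnCs, with a log2 fold change of 0.31 (95% interval -0.58 to 1.20, adjusted p = 0.718). The nonclassical H2-T23 was at 3.87, 9.27 and 8.98 CPM in control cells and at 7.73, 21.4 and 26.8 CPM in SnCs. It was higher in 3 of 3 mice, and the groups overlapped only through mouse 4, which was lowest in both. Its log2 fold change of 1.34 (SE 0.48) had an adjusted p of 0.0948 by edgeR. By edgeR with mouse as a block, which removes the difference between mice, the adjusted p was 0.0227. By DESeq2 without the block it was 0.0425. Without the SnCs of mouse 4 the log2 fold change was 1.68 (adjusted p = 0.0344 by edgeR). That fit kept the low control culture of mouse 4, so the mice were no longer balanced between the groups.

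B2m, the shared light chain, was at 66.5, 54.6 and 14.7 CPM in control cells and 60.9, 24.5 and 84.5 CPM in SnCs. The groups overlapped over most of their range, and the log2 fold change was 0.32 (95% interval -0.93 to 1.57, adjusted p = 0.799 by edgeR). These values followed the library: all exonic sequence of B2m lies in 1 annotated transcript, and its deviations ran beside those of the 1356 genes of that kind (Pearson's r = 0.99 over 13 libraries, which share depth and composition), from 1.71 below its mean in control mouse 6 to 1.12 above it in mouse 5 with 100 µg/mL. The 2 libraries of the same control mouse 5 gave 421 and 2360 counts. With offsets fitted for each sample on transcript sharing, GC content and length, B2m became 43.3, 47.6 and 41 CPM in control cells and 51.6, 48.3 and 39 CPM in SnCs, which differ by 0.07 on the log2 scale (SE 0.12, adjusted p = 0.735 by edgeR).

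**Figure D2:**
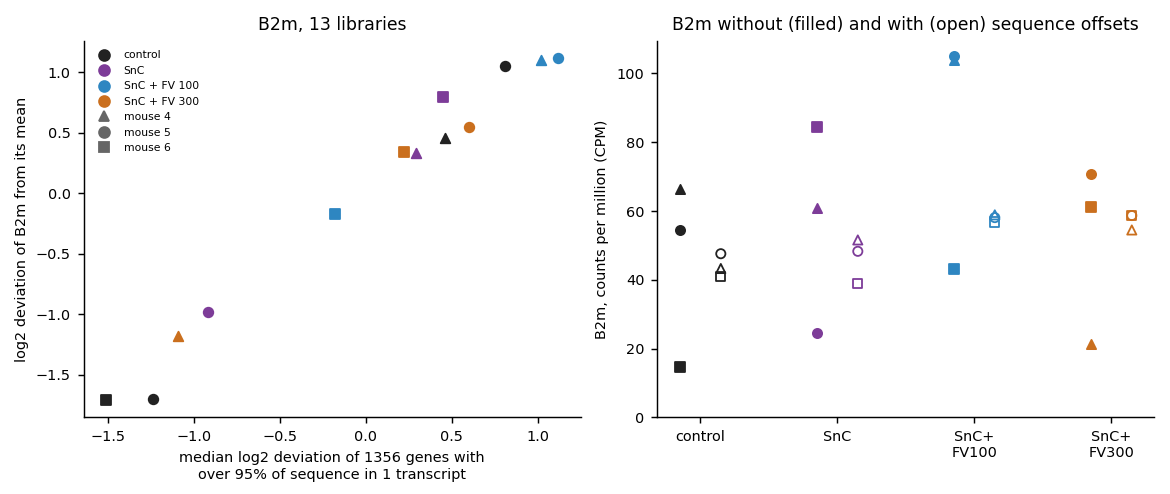
Left, log2 deviation of B2m from its mean against the median log2 deviation of 1356 single-transcript genes in 13 libraries (colour, group; marker, mouse); right, B2m in CPM in 12 samples without (filled) and with (open) sequence offsets. B2m runs from -1.71 to 1.12 beside the other single-transcript genes, and with offsets its 12 values lie between 39 and 58.9 CPM.

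The immunoproteasome subunits were low in every group. Psmb8, which replaces Psmb5 in the immunoproteasome, was at 1.1, 1.32 and 1.79 CPM in control cells and 0.959, 0.862 and 3.81 CPM in SnCs. For control mouse 5, library 5(1) held 1 Psmb8 count and library 5(2) held 66. Only mouse 6 was higher in SnCs, and the log2 fold change was 0.42 (95% interval -1.23 to 2.08, adjusted p = 0.801 by edgeR). Without the SnCs of mouse 6, and with its control culture kept, it was -0.61. Psmb9, which replaces Psmb6, had 6 counts in control cells, all in library 5(2) of mouse 5, and 6, 0 and 16 counts in the SnCs of mice 4, 5 and 6. The ratio of its summed counts was 4.18, with an exact 95% counting interval of 1.65 to 12.6, and its difference of 2.25 on the log2 scale (SE 1.31, adjusted p = 0.316 by edgeR) was within the spread between mice. Psmb9 shares 743 exonic bases with Tap1, 19.6% of its exonic length.

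The exchange of subunits can be read from ratios of TPM (a unit scaled for gene length and library total). The Psmb8 to Psmb5 ratio was 0.0119 to 0.0279 in control cells and SnCs, and 0.0165 to 0.104 after Fucoidan-FV, with overlap. TPM did not follow the counts throughout. Mouse 5 held 20 Psmb8 counts in SnCs and 22 at 100 µg/mL, but 0.97 and 8.06 TPM. The ratio of 0.104, in mouse 6 at 100 µg/mL, stood over a Psmb5 level of 65 TPM, the lowest in that group. The Psmb9 to Psmb6 ratio was 0 in 2 of 3 control cultures and in the SnCs of mouse 5, at most 0.00279 in the other control and senescent cultures, and between 0.00549 and 0.0193 in the 6 Fucoidan-FV cultures. The groups therefore did not overlap for Psmb9 to Psmb6, but no log ratio could be formed against a value of 0 and this was not tested. Psmb10, the third exchanged subunit, was much nearer its constitutive partner, with a Psmb10 to Psmb7 ratio of 0.14 to 0.45 over all 12 samples. An exact two-sided permutation test over 3 against 3 mice cannot give a p under 0.1. Across 9 tests of log2 ratios its p lay between 0.2 and 1, and between 0.9 and 1 after Benjamini-Hochberg adjustment.

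The second question was whether Fucoidan-FV altered the pathway in SnCs. None of the 10 genes passed edgeR's test at 100 µg/mL, where 4.02% of all genes were called in either direction, and none at 300 µg/mL, where 1.90% were called. Between the 2 doses none was called either, beside 0.00665% of all genes, and none had an unadjusted p under 0.05. The median log2 fold change of the 10 genes against SnCs was 0.20 at 100 µg/mL and -0.10 at 300 µg/mL, against -0.02 and 0.00 over all genes tested. Over the 8 genes without Nlrc5 and Psmb9 it was 0.04 and -0.10. At an unadjusted p under 0.05, Tap1 alone of the 10 was found at each dose, and DESeq2 called Tap1 alone, at 300 µg/mL. In data simulated from these samples, with 100 genes changed at each size, edgeR's test recovered 12% of 2-fold and 64% of 4-fold changes at 100 µg/mL. At 300 µg/mL it recovered 14% and 60%.

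Tap1 was the gene nearest to a call. It was at 38, 36.6 and 60.6 CPM at 100 µg/mL and at 48.9, 42.6 and 65 CPM at 300 µg/mL, in mice 4, 5 and 6, beside 30.2, 26.5 and 24.7 CPM in SnCs. All 6 treated cultures were above all 3 untreated senescent ones, as values did not overlap for 26.2% of all genes at 100 µg/mL and 19.6% at 300 µg/mL. The log2 fold change was 0.73 at 100 µg/mL (95% interval 0.06 to 1.40, adjusted p = 0.213 by edgeR) and 0.94 at 300 µg/mL (95% interval 0.27 to 1.62, adjusted p = 0.154 by edgeR). By DESeq2 the adjusted p was 0.0806 and 0.0376, and over all alternatives it lay between 0.0673 and 0.474 at 100 µg/mL and between 0.0376 and 0.444 at 300 µg/mL. Both comparisons use the same SnC samples. Between the doses Tap1 differed by a log2 fold change of 0.21 (95% interval -0.46 to 0.88), and it was higher at 300 µg/mL in 3 of 3 mice.

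Psmb9, which starts beside Tap1 on the other strand, was the other gene whose treated and untreated SnCs did not overlap at either dose. Psmb9 reached the filter's level in 1 untreated SnC culture and in all 3 cultures at each dose, so this separation is a description. It held 20, 21 and 26 counts at 100 µg/mL and 24, 20 and 17 counts at 300 µg/mL, against 6, 0 and 16 counts in SnCs. The log2 fold change was 1.62 at 100 µg/mL (95% interval -0.94 to 4.19, adjusted p = 0.494 by edgeR) and 1.64 at 300 µg/mL (95% interval -0.93 to 4.21, adjusted p = 0.578), with wide intervals at these counts. Tap2 did not follow Tap1: it was at 22.9, 18.7 and 28.8 CPM at 100 µg/mL and at 23.8, 20.5 and 31.4 CPM at 300 µg/mL, within the senescent range or beside it, with intervals of -0.76 to 0.44 and -0.66 to 0.55 for the log2 fold change. The difference between the Tap1 and Tap2 changes was not tested.

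Tapbp was at 85.8, 75.6 and 123 CPM at 100 µg/mL and 117, 89.2 and 122 CPM at 300 µg/mL, with log2 fold changes against SnCs of 0.15 (95% interval -0.39 to 0.68) and 0.35 (95% interval -0.18 to 0.89). H2-T23 was at 6.07, 11.7 and 14.4 CPM at 100 µg/mL, below SnCs in 3 of 3 mice, and at 11.6, 14.2 and 18.6 CPM at 300 µg/mL, below them in 2 of 3. Its log2 fold changes were -0.80 (95% interval -1.82 to 0.22, adjusted p = 0.383 by edgeR) and -0.34 (95% interval -1.35 to 0.68). H2-D1 was at 110, 56.6 and 59.9 CPM at 100 µg/mL and 132, 54.9 and 62.3 CPM at 300 µg/mL, lower than in SnCs in 3 of 3 mice at both doses. Its log2 fold changes were -0.31 (95% interval -1.21 to 0.58) and -0.17 (95% interval -1.06 to 0.72). Without the SnCs of mouse 4 they were 0.25 at each dose, but the treated cultures of mouse 4, which were high in H2-D1, stayed in that fit. H2-K1 was at 21.8, 28.3 and 52.4 CPM at 100 µg/mL and 34.7, 35.2 and 55.7 CPM at 300 µg/mL, inside or just above the senescent range. H2-K1 differed by -0.07 and 0.22, Nlrc5 by 0.31 and -0.15, and Psmb8 by 0.26 and -0.45 on the log2 scale, each with an interval spanning 0. B2m with offsets lay at 58.9, 58.1 and 56.8 CPM at 100 µg/mL and at 54.5, 58.7 and 58.8 CPM at 300 µg/mL, above all 3 senescent values, with log2 fold changes of 0.32 and 0.31 (SE 0.12 each) and adjusted p-values of 0.132 and 0.17 by edgeR.

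**Figure D3:**
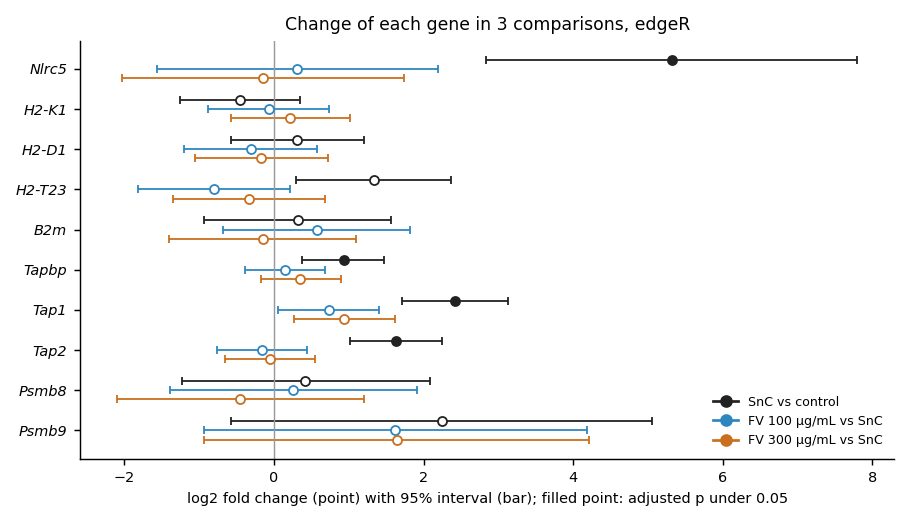
Log2 fold change of each gene with its 95% interval in SnCs against control cells and in SnCs with Fucoidan-FV at 100 or 300 µg/mL against SnCs, 3 mice per group; filled points have an adjusted p under 0.05. Nlrc5, Tapbp, Tap1 and Tap2 are filled for SnCs against control cells, and none is filled for Fucoidan-FV.

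Against control cells, Tap1, Tap2, Tapbp and Nlrc5 rose in the SnCs given either dose. At 100 µg/mL, 5 of the 10 genes rose against control cells and none fell, with 12.2% of all genes higher, and at 300 µg/mL 4 of the 10 rose and none fell, with 12.4% of all genes higher. Without Nlrc5 and Psmb9, which passed the filter only through the senescent and treated groups, 3 of 8 genes rose at each dose. Tap1 had the firmest difference, at 3.15 (SE 0.34) and 3.36 (SE 0.34) on the log2 scale, with adjusted p-values of 3.51e-05 and 2.62e-05 by edgeR, or 8.86-fold and 10.3-fold. Tap2 rose by 1.47 and 1.58 and Tapbp by 1.07 and 1.28 on the log2 scale. Nlrc5 counts were 20, 30 and 45 at 100 µg/mL and 29, 27 and 8 at 300 µg/mL, with ratios of summed counts to control of 52.1 (exact 95% counting interval 14 to 437) and 39.3 (10.4 to 331). Psmb9 was the further gene called at 100 µg/mL, at 3.87 on the log2 scale and an adjusted p of 0.0475 by edgeR, and was just outside at 300 µg/mL, at 3.89 with an adjusted p of 0.0501. By DESeq2 the adjusted p was 0.00577 and 0.00677, and by edgeR with offsets 0.0179 and 0.0187. Its ratios of summed counts to control were 12.3 (exact 95% counting interval 5.34 to 34.6) and 12.5 (5.41 to 35.3), and with mouse as a block its adjusted p was 0.0827 and 0.0853. The call at 100 µg/mL was also lost with control library 5(2) alone (0.131), without control mouse 4 (0.118) or 6 (0.0989) and without mouse 4 (0.0944), 5 (0.106) or 6 (0.0928) of the treated cultures, and Psmb9 at 300 µg/mL was also called with RLE factors (0.0478), with control library 5(1) alone (0.00999) and without control mouse 5 (0.0321), the only control culture with counts. Of 9 leukocyte markers tested, 1 was called higher at 100 µg/mL and 2 at 300 µg/mL, beside 12.2% and 12.4% of all genes. At each dose 8 of the 9 had a log2 fold change above 0 and 1 had one below 0, where 53.5% and 52.8% of all genes were above 0. Lyz2, a lysozyme of myeloid cells, was at 0.094 to 0.628 CPM in control cells and 2.91 to 6.44 and 0.737 to 5.64 CPM at the 2 doses (adjusted p = 0.0158 and 0.0235 by edgeR). Tyrobp, a myeloid signalling adaptor, had 1 count in control cells and 51 at 300 µg/mL (adjusted p = 0.0486 by edgeR). Tyrobp, Ptprc, Adgre1 and Fcer1g of these markers reached the filter's level in no control culture. They passed the filter only through groups in which they were higher, so their tests against control cells are descriptions. The part of the leukocyte markers in the values of Nlrc5 and Psmb9 was not tested.

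Some genes of the set were called against control cells only under other fits. H2-T23 at 300 µg/mL differed by 1.00 on the log2 scale (SE 0.48, adjusted p = 0.15 by edgeR), and with mouse as a block the adjusted p was 0.0238. B2m with offsets was higher than in control cells by 0.40 at 100 µg/mL (adjusted p = 0.0237 by edgeR) and by 0.38 at 300 µg/mL (adjusted p = 0.029), where without offsets the values were 0.89 (95% interval -0.37 to 2.15) and 0.17 (95% interval -1.08 to 1.42). H2-K1 in SnCs against control cells was lower with both offsets and the block, by -0.73 on the log2 scale (adjusted p = 0.0123). H2-K1 was below its control culture in 3 of 3 mice in SnCs and at each dose of Fucoidan-FV, although it passed the main test in none of them.

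The heavy chains also differed by mouse. H2-D1 was highest in mouse 4 in 4 of 4 groups, at 110 to 136 CPM against 48.3 to 81.8 CPM in mice 5 and 6, with no overlap. H2-K1 and H2-T23 ran the other way and were lowest in mouse 4 in 4 of 4 groups. The ratio of H2-D1 to H2-K1 in TPM was 1.12, 2.71, 1.96 and 1.46 in mouse 4 (control, SnCs, 100 µg/mL and 300 µg/mL), 0.572, 1.33, 1.03 and 0.8 in mouse 5, and 0.289, 0.708, 0.467 and 0.58 in mouse 6. Mouse 4 thus had the highest and mouse 6 the lowest ratio in each group. Within each mouse, this TPM ratio was higher in SnCs than in the other 3 groups. Counts gave another order in mouse 5, with 1462 for H2-D1 beside 829 for H2-K1 in SnCs and 1496 beside 748 at 100 µg/mL.

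A test of the mouse term in the fit with mouse as a block, added after these values were seen, called 16 of 15034 genes (0.106%) and none of the 10; H2-D1 was rank 18 with an adjusted p of 0.0564 by edgeR, H2-K1 rank 41 and H2-T23 rank 52 (adjusted p = 0.555 and 0.628). With sequence offsets it called 41 genes (0.273%), among them H2-D1 (adjusted p = 0.000331), with H2-T23 at 0.058 and H2-K1 at 0.149. Of the nonclassical heavy chains outside the 10, H2-T10 was called in the first fit (adjusted p = 0.0307): it held 92, 126, 102 and 57 counts in mouse 4 and between 0 and 15 in mice 5 and 6. H2-T22, another nonclassical heavy chain, was lowest in mouse 4 in 4 of 4 groups, at 20.1 to 25.6 CPM against 27.7 to 77.7 CPM.

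**Figure D4:**
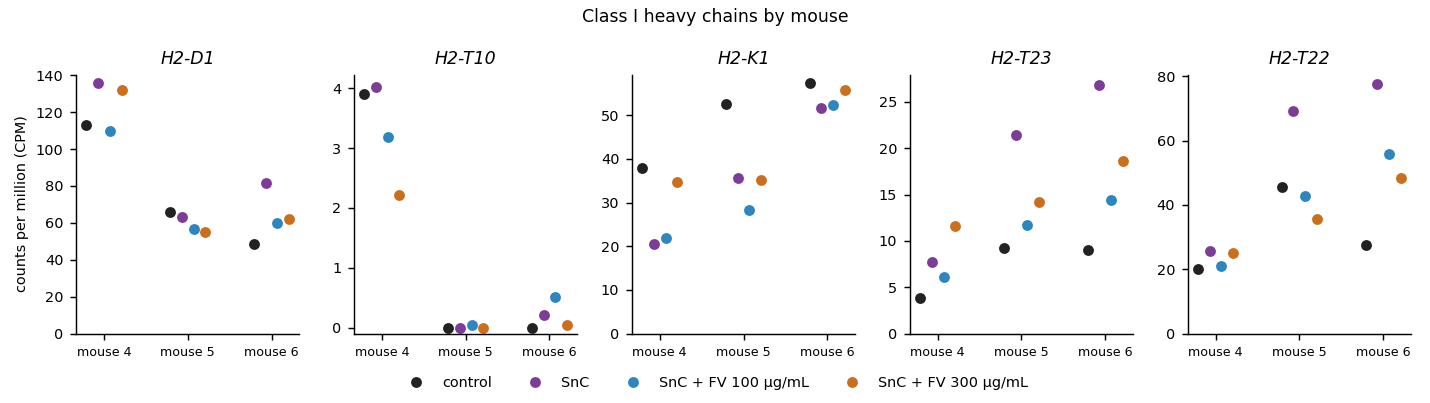
CPM of 5 class I heavy chains in mice 4, 5 and 6, with 1 point per group (black, control; purple, SnC; blue and orange, SnC with Fucoidan-FV at 100 and 300 µg/mL). H2-D1 and H2-T10 are highest in mouse 4 in all 4 groups, and H2-K1, H2-T23 and H2-T22 are lowest in it.

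Of the 31-base words in the transcripts of H2-K1, H2-D1 and H2-T23, 77.2%, 73.5% and 75.6% occurred in no other gene, so part of their reads could have been shared with other class I genes. The 16 genes called by mouse also included Xist and 4 Y-linked genes, and 8 gene copies named for parents on chromosome 17, among them 3 copies of Rps18. Xist was at 91.4 to 201 CPM in mouse 4 and at 0 to 0.114 CPM in mice 5 and 6. The Y-linked Eif2s3y, Ddx3y, Kdm5d and Uty were at 0 CPM in mouse 4 and at 12.1 CPM or more in mice 5 and 6. This is the pattern of female cells in mouse 4 and of male cells in mice 5 and 6, so sex differed along with mouse. The copy Rps18-ps6 was at 53.6 to 148 CPM in mouse 4 and at 0.32 to 1.35 CPM in mice 5 and 6, and Glo1-ps was at 2.35 to 3.19 CPM against 0 to 0.238 CPM. The copies Rps2-ps10, Atp6v0c-ps2, Rnps1-ps and Hmga1b overlapped between mouse 4 and the other mice, with Rps2-ps10 at 481 to 1420 CPM against 13.9 to 1381 CPM. The parent Rps18 (chr17:34170972-34175057) stands between Tapbp and H2-K1, and Glo1 (chr17:30803910-30845845) lies outside the 2.21 Mb of the 8 genes, on the side of Tapbp. The other parents lie further out on that side: Hmga1 (chr17:27775449-27782648), Rps2 (chr17:24937080-24940904), Rnps1 (chr17:24633504-24645325) and Atp6v0c (chr17:24382835-24389703). The part of sex and of these other differences between the mice in the heavy chain values was not tested.

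TPM allows levels to be ordered between genes. In control cells B2m (100 TPM, SD 61.2), H2-K1 (95.2 TPM, SD 24) and H2-D1 (57.2 TPM, SD 27.3) stood highest and overlapped as neighbours, and H2-D1 overlapped Tapbp (28.6 TPM). H2-T23 (7.15 TPM), Tap2 (3.94 TPM) and Tap1 (3.4 TPM) followed and overlapped as neighbours, then Psmb8 (2.16 TPM) apart from both sides, and Psmb9 (0.065 TPM) and Nlrc5 (0.0333 TPM) last. In SnCs H2-K1 came at rank 4, at 52.7 TPM (SD 21), after B2m (121 TPM, SD 57.8), H2-D1 (74.6 TPM, SD 39.2) and Tapbp (53.6 TPM, SD 4.5), each overlapping the next. With Fucoidan-FV, Tapbp was at rank 2, with 81.3 TPM (SD 12.6) with 100 µg/mL and 93.8 TPM (SD 5.11) with 300 µg/mL, overlapping H2-K1 at both doses. Tap1 was at rank 7 in control cells, rank 6 in SnCs and rank 5 at both doses, at 29.1 TPM (SD 5.37) and 37.5 TPM (SD 9.71).

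Other genes of the pathway were taken from 6 lists. In SnCs against control cells, 0 of 11 tested genes of peptide loading and quality control rose and 1 fell, 0 of 10 further proteasome genes rose and 1 fell, 2 of 11 tested heavy chains of other class I and class I-like molecules rose, 1 of 24 upstream transcription and interferon signalling genes rose and 1 fell, 1 of 11 tested interferon-induced genes rose, and 1 of 3 tested MHC class II genes rose, beside 6.11% of all genes that rose and 5.63% that fell; most of these counts lie near those shares. By the same fit, no gene of these lists was called in SnCs with Fucoidan-FV against SnCs at either dose. With offsets, Ezh2 was lower at 100 and 300 µg/mL (adjusted p = 0.0286 and 0.0227 by edgeR), and with offsets and the mouse block so was Ezh2 (0.0416 and 0.0352), while Fcgrt was higher (0.0481 and 0.0327). The median log2 fold changes of the 6 lists in SnCs were 0.01, 0.14, 0.13, 0.11, 1.56 and 1.85 in that order, beside 0.07 over all genes. The interferon-induced gene that rose, Ifit3, passed the filter on low counts only through groups in which it was higher.

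The aminopeptidase gene Erap1, which trims peptides to the length that class I binds, fell from 17.6 to 23.7 CPM in control cells to 8.66 to 10.2 CPM in SnCs (log2 fold change -1.06, adjusted p = 0.0275 by edgeR). Calr, the chaperone calreticulin, and Pdia3, its partner in the loading complex, had log2 fold changes of -0.55 and -0.23 and were not called. Psme3, a subunit of the nuclear proteasome activator, fell by 0.77 on the log2 scale (adjusted p = 0.0203), while Psme1 and Psme2, the interferon-inducible activator, differed by 0.29 and 0.22 and were not called. The class I-like genes that rose were Fcgrt, the neonatal Fc receptor for IgG and albumin (log2 fold change 1.50, adjusted p = 0.00948), and Mr1, which presents vitamin B metabolites (1.20, adjusted p = 0.0377). Both pair with β2-microglobulin, and neither presents peptides.

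Upstream of the pathway, Irf7, an interferon regulatory factor, rose from 0.846 to 1.15 CPM in control cells to 3.32 to 5.43 CPM in SnCs (log2 fold change 2.19, adjusted p = 0.022 by edgeR). Ezh2, the methyltransferase of the repressive mark H3K27me3 and a proliferation-linked gene, fell from 67.3 to 93 CPM to 13.6 to 21.9 CPM (log2 fold change -2.12, adjusted p = 0.000333). Irf1 (-0.75), Stat2 (0.86) and Irf9 (0.90) were not called. Of the interferon-induced genes, 11 of 11 tested had a log2 fold change above 0, beside 54.2% of all genes. Ifit3, which limits viral RNA translation, passed (3.45, adjusted p = 0.0153 by edgeR), from 0.085 to 0.177 CPM to 0.959 to 1.97 CPM. Isg15 (2.76, adjusted p = 0.0811) and Ifit1 (2.83, adjusted p = 0.117) did not. Ifit3, Ifit1 and Cd274 of this list reached the filter's level in no control culture, at 0.177, 0.255 and 0.275 CPM at most. They passed the filter only through groups in which they were higher. Their tests against control cells are therefore descriptions, and they are among the 11. Of the interferon genes themselves, Ifng had 1 count in SnCs and Ifnb1, Ifna4 and Ifnl3 had none in any sample. H2-DMa, which edits peptides on class II molecules, rose (1.85, adjusted p = 0.00985), at 3.14 to 4.79 CPM in control cells and 8.85 to 21.8 CPM in SnCs. The class II chains H2-Ab1 (1.35, adjusted p = 0.138) and H2-Eb1 (3.26, adjusted p = 0.11) did not pass in SnCs although their values were above control in 3 of 3 mice without overlap, and H2-Ab1 passed against control cells at each dose (adjusted p = 0.0418 by edgeR). H2-Aa had 6 counts in all, each with 100 µg/mL. Of 9 leukocyte markers tested, 8 were higher in SnCs than in control cells and none was called, and their part in the class II values was not tested.

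The calls of Fcgrt, H2-DMa and Ezh2 held when any 1 culture was left out. Leaving out control mouse 4 took the adjusted p by edgeR to 0.065 for Irf7, 0.126 for Mr1, 0.0655 for Ifit3 and 0.0945 for Psme3. Leaving out control mouse 5 took it to 0.0975 for Erap1, 0.0661 for Irf7, 0.126 for Mr1 and 0.093 for Psme3, and leaving out control mouse 6 to 0.052 for Irf7. With control library 5(2) alone, Ifit3 was at 0.0545. Without the SnCs of mouse 4 it was 0.0614 for Erap1, 0.0688 for Irf7 and 0.0712 for Mr1, without those of mouse 5 it was 0.0764 for Erap1, 0.114 for Mr1 and 0.0894 for Psme3, and without those of mouse 6 it was 0.0507 for Psme3. When only the 2 groups were fitted, the adjusted p was 0.0511 for Fcgrt, 0.0593 for H2-DMa, 0.0803 for Erap1, 0.0578 for Irf7, 0.18 for Mr1, 0.069 for Ifit3 and 0.103 for Psme3, so that Ezh2 alone of these genes was called in that fit. Erap1 with no filter (0.0576) and Mr1 with control library 5(2) alone (0.0576) were also just outside. The direction of each was as given above in all of these fits.

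**Figure D5:**
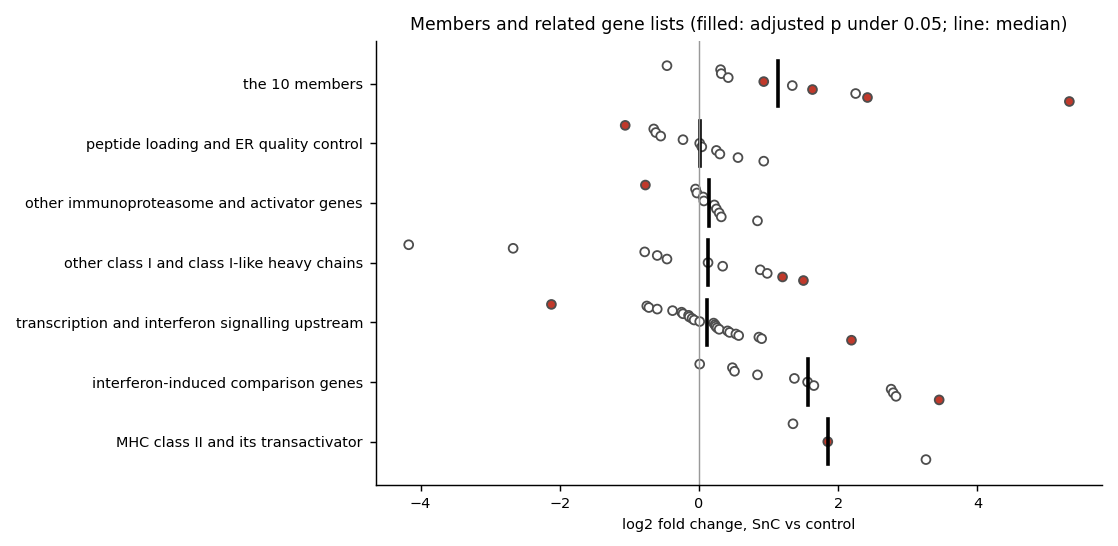
Log2 fold change in SnCs against control cells of the 10 genes and of 6 lists of related genes, 1 point per tested gene; filled points have an adjusted p under 0.05 and the line is the median of the list. The medians are 1.13 for the 10 genes (0.67 without Nlrc5 and Psmb9), 1.56 for interferon-induced genes and 1.85 for 3 class II genes, and between 0.01 and 0.14 for the other lists. The interferon-induced list includes Ifit1, Ifit3 and Cd274, which were below the filter's level in every control culture.

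The 10 genes did not vary as 1 block over the 12 samples. The correlation of each with the mean standardized log2 CPM of the other 9 was 0.96 for Tapbp, 0.85 for Tap1, 0.83 for Tap2, 0.76 for Psmb9, 0.57 for Nlrc5, 0.55 for H2-T23, 0.36 for Psmb8, 0.14 for B2m and -0.15 for both H2-K1 and H2-D1. Among genes outside the pathway lists with a mean of at least 10 CPM, the 5 whose pattern was most like the mean of the 10 were Fbxw9 (r = 0.99), Atraid (0.97), Tmem9 (0.97), Podxl2 (0.96) and Washc3 (0.96). These are descriptions over 12 libraries that share group differences, depth and composition.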

How the data were processed

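RNA from 13 libraries of WT MEFs (control, SnC, SnC with Fucoidan-FV at 100 or 300 µg/mL) was analysed from the deposited gene tables. Per the labels and the methods of the authors, reads were checked with FastQC 0.12.1, trimmed with Trimmomatic, mapped with STAR 2.7.11b to GRCm39 and quantified with RSEM 1.3.1; the authors deposited expected counts and length-scaled TPM for each library. A trimming setting and the strand setting of the counting were not given in the sources used here. A table of the whole series held the same values and was not used.

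The expected counts, which need not be whole, were rounded, and the 2 libraries of control mouse 5 were summed, giving 12 samples. Genes were kept with filterByExpr (minimum count 10, minimum total 15), scaled by TMM and fitted with edgeR 4.0.16 in R 4.3.3 in 1 quasi-likelihood model over the 4 groups, with Benjamini-Hochberg adjustment over 15034 genes. A gene was called at an adjusted p under 0.05, and the authors' additional limit of a log2 fold change over 1 was an alternative. CPM was used within a gene and TPM between genes. Intervals for differences are 95% intervals from the model. Alternatives were DESeq2 1.42.0, RLE factors, other filters, fits of 2 groups only, each library of control mouse 5 alone or both apart, each sample left out, mouse as a block, and offsets fitted per sample with mgcv 1.9.3 on transcript sharing, GC content and length. Scripts were tested on simulated data. Subunit ratios were compared with scipy 1.17.1.

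The labels give the same mouse numbers in each group, so samples with 1 number come from 1 mouse; the reported fit had no term for mouse, and the block was an alternative. Their deviations from the group means correlated weakly over 18 pairs (median -0.00625, range -0.20 to 0.42). The genes were all 10 members, with values in every sample, and other listed genes called in SnCs against control cells or in Fucoidan-FV against SnCs (at most 12). The members and lists were chosen with earlier results of these data known. Gene positions are from GENCODE M39 on GRCm39 and promoter sequences from RefSeq. No series-wide statistic of the authors was used.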

Additional observations from a re-analysis of the deposited data

How the results depend on the processing

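With 3 mice per group, small changes could be missed: edgeR recovered 13% of 2-fold and 67% of 4-fold changes simulated for SnCs against control cells. The simulation changed 100 genes at each size, whereas 918 genes rose and 847 fell in the data. Benjamini-Hochberg adjustment depends on the number of changed genes, so these shares may be too low for the data. Of the recomputed counts of called genes, 104 stayed within 1.5 times the reported one and 5 did not: 2 genes in place of 4 in SnCs against control cells when only the 2 groups were fitted (Tap1 and Tap2 kept), 1 in place of 0 at 300 µg/mL against SnCs by DESeq2 (Tap1), 3 in place of 5 at 100 µg/mL against control cells with 10 counts in every sample, which removes Psmb9 and Nlrc5 from testing, 7 in place of 4 at 300 µg/mL against control cells with offsets and the replicate block, and 1 in place of 0 for the mouse term with offsets. Leaving out each sample in turn gave 3 to 5 called genes in SnCs, 0 at either dose against SnCs and between doses, and 4 to 5 at either dose against control cells. The replicate block alone changed the calls of Tapbp, H2-T23 and Psmb9 given above and no other of the 10 genes. The Psmb8 to Psmb5 log2 ratio of SnCs to control cells was 1.44 with control library 5(1) alone, against -0.19, and -0.50 to 0.12 with each sample left out. Library 5(1) held 1 Psmb8 count (0.04 TPM) and library 5(2) held 66 (4.02 TPM), so the value of 1.44 rests on that 1 count for control mouse 5. The other 75 recomputed ratio differences moved by less than the spread between replicates. No called gene of the 10 changed sign under any alternative.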
